A study of Marchantia polymorpha with 6 samples.

Results

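Close divergent gene pairs are neighbours on opposite strands whose 5′ ends face each other, a head-to-head arrangement. They were taken from the deposited table of Marchantia polymorpha gene models by position alone. Models were ordered along each sequence, and a pair was kept when the first model lay on the minus strand, the next on the plus strand, their spans did not overlap and at most 1000 bases separated them. This gave 764 pairs with 1528 genes, of 17604 non-overlapping neighbouring pairs and 19287 gene models in all. Neighbours at the same gap in the other arrangements served for comparison. They were 1050 tail-to-tail pairs, whose 3′ ends face each other, and 1838 same-strand pairs. The groups were 3 samples of wild-type Tak-1, a male accession of this liverwort, and 3 samples of Mpbes1, plants mutated by CRISPR/Cas9 in the BES1 transcription factor gene. Both were thalli with apical notches from untreated plants, and the samples of a genotype came from different plants. All grew for 30 days under white light of 50 µmol/m2/s, with 16 h of light at 22 °C and 8 h of dark at 20 °C. The labels do not say whether the Mpbes1 plants belong to 1 mutant line. All messenger RNA levels come from thallus as a whole, so fewer cells that express a gene and less RNA per cell cannot be told apart.

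In a divergent pair the stretch between the models lies upstream of both genes, so that both may be transcribed outwards from neighbouring or shared regulatory DNA. In a tail-to-tail pair that stretch lies downstream of both genes, and in a same-strand pair it lies downstream of one and upstream of the next. BES1 belongs to a plant family of DNA-binding regulators, studied mainly for its part in the brassinosteroid response of flowering plants. The deposited files do not pair the identifiers with gene names, and 0 of the 19287 identifiers matched the reference gene table, so pairs are named by position, no gene function is stated, and neither the targeted gene nor markers of thallus were analysed here. No sequence of the intervening DNA is shown, since no genome of this build was used.

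Library totals ranged from 11597664 to 17741253 counts. Levels are in CPM, read counts scaled to the TMM-adjusted library size, and a gene with 0 counts may still have had 0.166 to 0.266 CPM, depending on the library (3 counts, counting error only). Spearman correlations between libraries over tested genes began at 0.991 within a genotype and ended at 0.941 between genotypes. The genes of head-to-head pairs are 7.92% of all models. They took 6.59%, 6.44% and 6.42% of the counts in the 3 Tak-1 libraries and 6.90%, 6.90% and 6.81% in the 3 Mpbes1 libraries. Every Mpbes1 library lay above every Tak-1 library, with a mean of 6.87% ± 0.05 against 6.48% ± 0.09 (SD, n = 3). This difference of 0.39 percentage points was 0.029 for pairs with gaps of at most 200 bases. For pairs with no other neighbour within 1000 bases it was 0.092. Both sets hold fewer genes. The share of counts was not computed for the other arrangements, so the rise cannot be called particular to head-to-head genes.

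The gaps were concentrated at short distances. The median gap was 332 bases, with quartiles at 131.5 and 605, against medians of 407 for tail-to-tail and 368.5 for same-strand pairs. In 47 of the 764 pairs the models abutted, with 0 bases between them. The pairs lay on 189 sequences, and 1 was on the male sex chromosome. The genes had a median exon length of 1738 bases and a median of 3 exon blocks (exons of all isoforms, merged where they overlap), and 26.2% had a single block. Partners were seldom alike in structure. In 39 pairs (5.10%) they had the same number of blocks and exon lengths within 1.5 times of each other, against 4.38% of tail-to-tail and 7.13% of same-strand pairs. A further model of the table overlapped 78 of the 1528 genes.

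Many of the pairs had only 1 partner with enough reads to be tested for a difference between genotypes. Of the 1528 genes, 954 (62.4%) passed the filter on low counts, against 63.8% of all models, and 252 (16.5%) had no read in any library, against 15.7%. Both partners passed in 308 pairs (40.3%), exactly 1 in 338 (44.2%) and neither in 118 (15.4%). Among tail-to-tail pairs both passed in 49.0%, and among same-strand pairs in 44.9%. The closest pairs differed most from the rest. Below a gap of 100 bases both partners passed in 36 of 156 pairs and 1 in 92, whereas between 200 and 300 bases both passed in 55 of 105. In the 338 pairs with 1 tested partner, the other had 0 counts in all 6 libraries in 146. There the tested partner had a median level of 12.4 CPM per kb of exon and a median exon length of 2522 bases, and the other had 0.0117 CPM per kb and 919 bases.

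**Figure D1:**
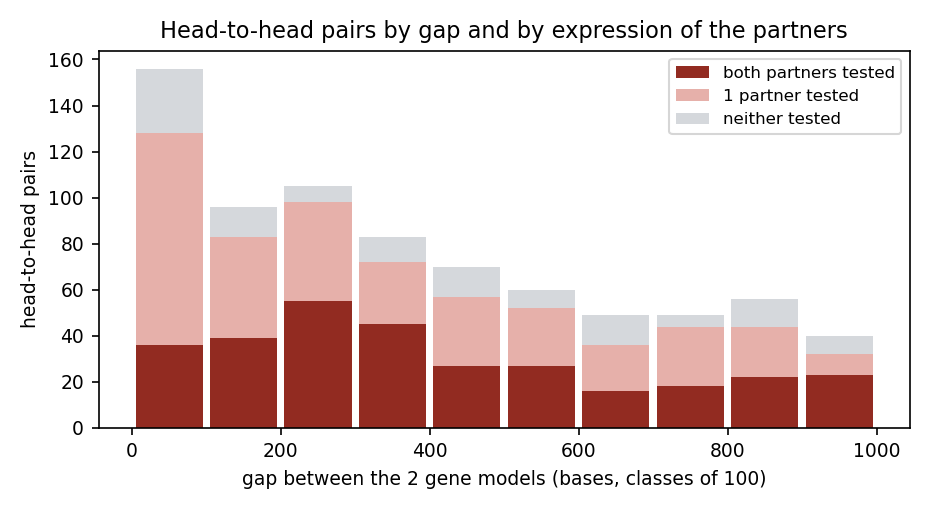
Number of head-to-head pairs (vertical axis) by the gap between the models in classes of 100 bases (horizontal axis), split by how many partners had enough reads to be tested. The class below 100 bases holds 156 pairs, of which 92 have 1 tested partner, and the last class includes a gap of 1000 bases.

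Levels of head-to-head genes were near those of all models, and partners differed widely from each other. Over all 1528 genes the median level was 4.95 CPM per kb of exon, against 4.53 for all models, 5.64 for genes of tail-to-tail and 3.28 for genes of same-strand pairs. Among tested genes the medians were 12.7 for head-to-head pairs and 13.1 for all. The median per library for head-to-head genes was 4.57, 4.45 and 4.40 in Tak-1 and 4.89, 4.88 and 4.84 in Mpbes1, so the groups did not overlap. With each gene's level averaged within a genotype, the median went from 4.68 in Tak-1 to 4.91 in Mpbes1. It also rose for genes of tail-to-tail pairs (5.37 to 5.59) and of same-strand pairs (3.11 to 3.22). Over all models it was slightly lower in Mpbes1. The rise was thus shared by the other close pairs taken as a whole and is not particular to head-to-head genes. It was absent at gaps of at most 200 bases. There the median went from 2.26 in Tak-1 to 2.08 in Mpbes1 for genes of head-to-head pairs. For tail-to-tail pairs it went from 3.22 to 3.14, and for same-strand pairs from 2.24 to 2.02. Within the 308 pairs with both partners tested, levels per kb were within 2-fold of each other in 122 (39.6%) and at least 10-fold apart in 62 (20.1%). The median absolute log2 ratio of the partners' levels was 1.42, against 1.94 in tail-to-tail and 1.65 in same-strand pairs. Across pairs, the Spearman correlation of the partners' levels was 0.10 for head-to-head, -0.05 for tail-to-tail and 0.12 for same-strand pairs. These correlations are descriptions over pairs of genes that share the same 6 libraries.

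In the comparison of Mpbes1 with Tak-1, the share of head-to-head genes that rose was near that of all genes. The share that fell was lower, but was close to that of all genes in pairs without further close neighbours. A gene counts as called when its p, adjusted by Benjamini-Hochberg over all 12313 genes tested, was under 0.05 in edgeR's quasi-likelihood test. "Rose" and "fell" mean called genes. Of the 954 tested members 341 (35.7%) were called, against 40.4% of all genes tested. Of these, 193 rose (20.2%, against 19.3% of all) and 148 fell (15.5%, against 21.1%). At least 2-fold changes were found in 73 members (7.65%, against 11.7%), 34 that rose (3.56%, against 4.55%) and 39 that fell (4.09%, against 7.16%). In pairs whose partners had no other neighbour within 1000 bases, 98 of the 504 tested genes rose (19.4%) and 96 fell (19.0%), so the lower share of falls was nearly gone there. With at least 5 CPM required in 3 libraries, fewer genes were tested, and 47 of 852 members changed at least 2-fold. Under that filter 96 of 1270 genes of tail-to-tail and 115 of 1810 of same-strand pairs did so.

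The calls were divided unevenly between pairs with both partners expressed and pairs with a weak or silent partner. Where both partners were tested, 126 of the 616 genes rose (20.5%) and 50 fell (8.12%). Where only 1 partner was tested, 67 of the 338 tested genes rose (19.8%) and 98 fell (29.0%). Falls were thus less common in the first kind of pair and more common in the second than the 21.1% of all genes, while rises were near the 19.3% of all genes in both. The corresponding shares that fell were 18.2% and 21.1% in tail-to-tail pairs, 14.3% and 25.1% in same-strand pairs, and 19.1% and 24.7% in all non-overlapping neighbours. The tested genes of both kinds of head-to-head pair had similar levels, with medians of 28.1 and 31.9 CPM. With library size alone as the scaling, which moved the median log2 fold change of all genes from 0.007 to 0.050, 25.2% rose and 6.82% fell where both partners were tested. Of all genes 22.8% rose and 18.6% fell under that scaling. Without the first Mpbes1 library 12.7% rose and 7.23% fell where both partners were tested, against 14.4% and 17.5% of all genes. In pairs without further close neighbours 9.40% fell where both partners were tested and 33.0% where only 1 was. Genes are not replicates, and the difference between the kinds of pair was not tested.

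**Figure D2:**
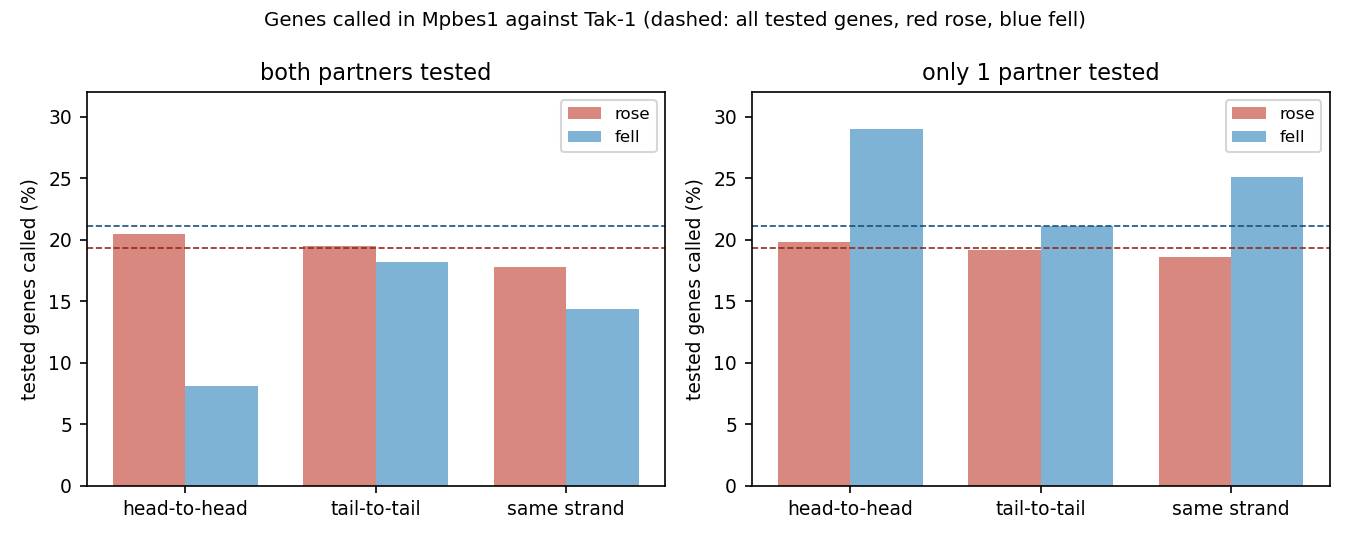
Percent of tested genes called in Mpbes1 against Tak-1 (vertical axis) for genes of close pairs by orientation (horizontal axis), in pairs with both partners tested (left) and in pairs with only 1 partner tested (right). Red bars rose, blue bars fell, and dashed lines give the share of all tested genes; the blue bar of head-to-head pairs is at 8.12% on the left and 29.0% on the right.

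When both partners of a head-to-head pair were called, they mostly moved in the same direction. Both were called in 38 of the 308 pairs. In 33 they moved the same way, 24 with both up and 9 with both down, and in 5 they moved in opposite directions. The opposite pairs numbered 2 without the first Mpbes1 library, and 3 without the second or the third Mpbes1 library, without the third Tak-1 library or with DESeq2. Same-way pairs were thus 10.7% of those with both partners tested, close to the 10.4% of all 8077 non-overlapping neighbours, and opposite pairs were 1.62%, against 6.44%. Both shares depend on how many genes rose and fell. In such pairs 8.12% of head-to-head genes fell, against 19.1% over all neighbours, and the part of this in either share was not tested. Among tail-to-tail pairs at the same gap 35 moved the same way and 34 in opposite directions, of 514. Among same-strand pairs the counts were 82 and 32, of 826. Both partners rose in 18 tail-to-tail and 39 same-strand pairs and both fell in 17 and 43. Over all 8077 neighbours both rose in 419 pairs and both fell in 419, an even split. The split of head-to-head pairs, 24 and 9, leaned towards rises. In 100 head-to-head pairs 1 partner was called, and the other had a change of the same sign in 68. That share was 121 of 249 in tail-to-tail pairs (48.6%) and 186 of 302 in same-strand pairs (61.6%). In the remaining 170 head-to-head pairs (55.2%) neither was called, against 38.1% of tail-to-tail and 49.6% of same-strand pairs.

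Over all 308 pairs the log2 fold changes of the partners had a Spearman correlation of 0.38 and a Pearson correlation of 0.50. The Spearman value was -0.04 over the 514 tail-to-tail pairs and 0.31 over the 826 same-strand pairs. Pearson values there were 0.01 and 0.37. Over all non-overlapping neighbours the Spearman value was 0.14 and the Pearson value 0.30. The Pearson value was 0.17 for the 75 head-to-head pairs with a gap of at most 200 bases, where the Spearman value was 0.46. For the 278 same-strand pairs at that gap the Pearson value was 0.69 and the Spearman value 0.49. The correlations describe pairs that share libraries, normalization and depth. A total of 192 genes of head-to-head pairs also belong to a close tail-to-tail pair and 140 to a close same-strand pair. Among pairs with no other neighbour within 1000 bases, the 149 head-to-head pairs with both partners tested had a Spearman correlation of 0.39, with 17 pairs moving the same way and 1 in opposite directions. A set with both partners at a mean of at least 20 CPM was chosen after seeing the data. Its Spearman value was 0.35 over 129 head-to-head pairs, 0.00 over 176 tail-to-tail pairs and 0.02 over 233 same-strand pairs. The Pearson values of these pairs were 0.34, 0.20 and -0.02.

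**Figure D3:**
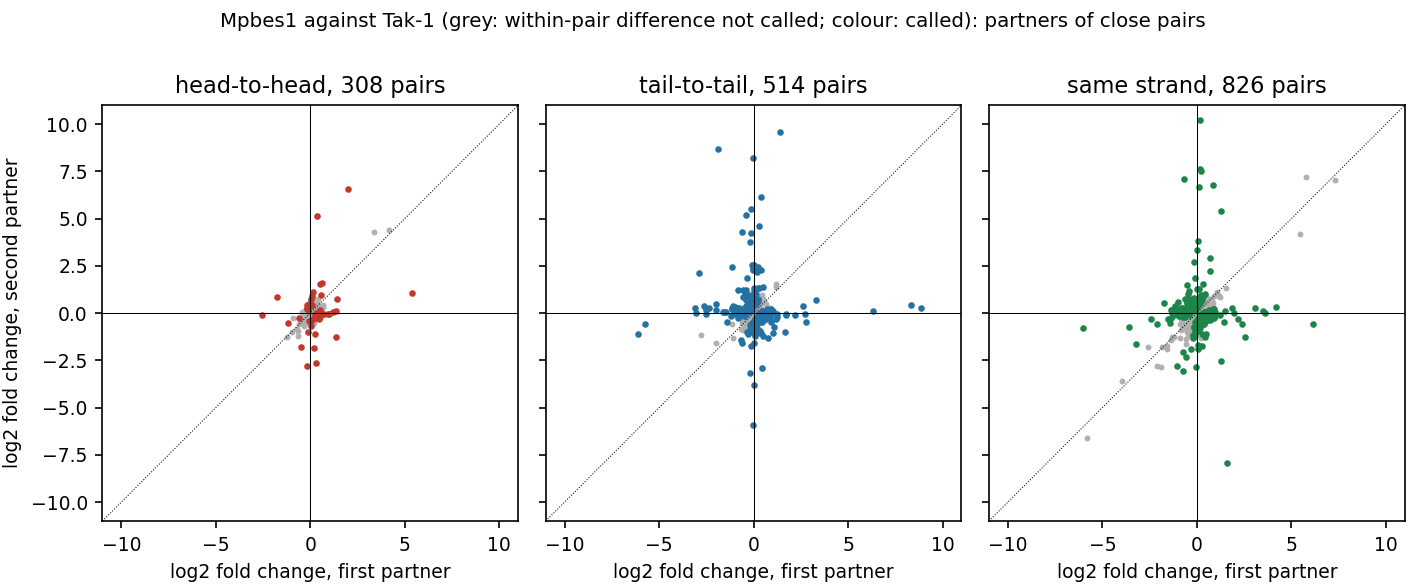
Log2 fold change of Mpbes1 against Tak-1 for the first partner along the sequence (horizontal axis) and the second (vertical axis), 1 point per pair with both partners tested and a gap of at most 1000 bases. Coloured points are pairs whose within-pair ratio changed (54 of 308 head-to-head, 239 of 514 tail-to-tail, 223 of 826 same-strand), grey points the others, and the dotted diagonal marks equal changes.

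The ratio between the partners was tested directly, pair by pair, as the difference of their log2 fold changes with each library as a block. Of the 308 head-to-head pairs 54 (17.5%) had a changed ratio, against 41.6% of all neighbouring pairs tested (edgeR's quasi-likelihood test, adjusted over all 8077 neighbouring pairs). At the same gap the ratio changed in 239 tail-to-tail pairs (46.5%) and in 223 same-strand pairs (27.0%). A changed ratio of at least 2-fold was found in 16 head-to-head pairs (5.19%, against 16.5% of all), in 17.7% of tail-to-tail and in 9.81% of same-strand pairs. The median absolute difference between the partners' log2 fold changes was 0.18, against 0.40 and 0.25. Of the 54 pairs, 36 had 1 partner called, 8 had both called the same way, 5 in opposite directions and 5 had no call. The share was 17.1% among pairs with both partners at a mean of at least 20 CPM, against 44.9% for tail-to-tail and 37.3% for same-strand pairs at that level. It was 16.6% without the pairs that abut and 18.6% without partners that overlap a further model. These sets and the one at 20 CPM were not planned in advance. Without the first or the second Mpbes1 library, which leaves 2 libraries in that group, 12.6% and 12.2% of head-to-head pairs had a changed ratio, against 37.1% and 36.8% of tail-to-tail pairs. These shares describe the 3 arrangements side by side, and the difference between arrangements was not tested.

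Head-to-head pairs kept a similar share of changed ratios up to a gap of 2000 bases. The ratio changed in 14.7% of pairs with gaps of at most 200 bases, in 17.3% of those over 200 and up to 500, and in 19.8% of those over 500 and up to 1000. The share was 18.3% for gaps over 1000 and up to 2000 bases, 27.5% over 2000 and up to 5000, and 41.4% over 5000. Tail-to-tail pairs lay between 44.4% and 54.2% in every gap class, the closest included. Same-strand pairs went from 19.4% in the closest class to 34.1% for gaps over 500 and up to 1000 bases and 42.8% over 1000 and up to 2000. The Spearman correlation of head-to-head partners was 0.46, 0.29, 0.37 and 0.36 in the 4 classes up to 2000 bases and 0.13 over 5000. In same-strand pairs it was 0.49, 0.33, 0.15 and 0.15 in the 4 classes up to 2000 bases. Up to a gap of 500 bases it was thus no lower there than in head-to-head pairs. In tail-to-tail pairs it was between -0.14 and 0.04 in all 6 classes. The strand setting of the authors' counting is not given in the sources used here, and its part in these values was not tested.

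**Figure D4:**
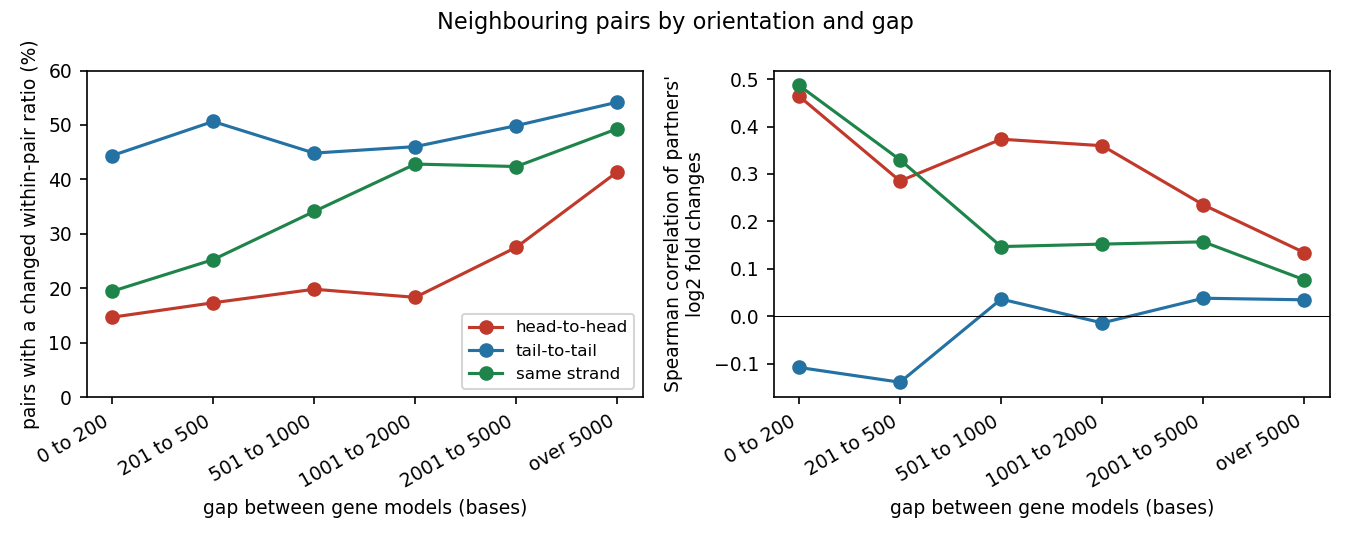
Percent of pairs with a changed within-pair ratio (left) and Spearman correlation of the partners' log2 fold changes (right) by the gap between the models in bases (horizontal axis), for pairs with both partners tested. Head-to-head pairs stay between 14.7% and 19.8% up to 2000 bases, while tail-to-tail pairs stay above 44%.

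The variation from plant to plant within a genotype was also compared between partners. For each pair the deviations of log2 CPM from the genotype means were correlated over the 6 libraries. The median correlation was 0.18 over the 308 head-to-head pairs (quartiles -0.27 and 0.55), and 194 values (63.0%) were above 0. Over all non-overlapping neighbours, which share the same libraries and scaling, the median was 0.094 and 55.3% were above 0. The medians were 0.04 for tail-to-tail pairs, with 52.1% above 0, and 0.17 for same-strand pairs, with 60.3% above 0. Each value rests on only 6 libraries, and it is given as a description.

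The pairs with both partners up covered a wide range. The log2 fold changes of their partners lay between 0.26 and 6.58, the median was 0.44, and the ratio changed in 6 of the 24. The pair that led by its smaller change lies on scaffold_46, with 463 bases between the models. Its minus-strand partner, Mapoly0046s0058.v3.1 (571709 to 572680, 1 exon block), had 2.75, 2.03 and 2.04 CPM in Tak-1 and 41.3, 35.0 and 47.3 CPM in Mpbes1. Its plus-strand partner, Mapoly0046s0059.v3.1 (573144 to 574374, 1 exon block), had 0.742, 0.858 and 1.15 CPM in Tak-1 and 17.6, 17.1 and 22.2 CPM in Mpbes1. All Mpbes1 libraries of both partners lay far above all Tak-1 libraries. The log2 fold changes were 4.17 ± 0.17 and 4.38 ± 0.21 (SE; edgeR adjusted p = 2.0e-08 and 6.7e-08). They did not differ beyond their error, with a difference of 0.21 ± 0.28 (SE; adjusted p = 0.59). These partners are alike in structure by the measure above, and how multiply aligned reads were counted is not given in the sources used here.

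On scaffold_36 the models at 400353 to 401293 and 401663 to 402973 are 369 bases apart. The first went from 0.965, 1.17 and 0.266 CPM in Tak-1 to 8.54, 8.24 and 8.64 CPM in Mpbes1. The second went from 0.519, 0.858 and 0.444 CPM to 11.9, 10.9 and 14.1 CPM. Both partners were near the lower limit of detection in Tak-1 and clearly expressed in every Mpbes1 library. Their log2 fold changes were 3.36 ± 0.31 and 4.31 ± 0.25 (SE; edgeR adjusted p = 1.0e-05 and 2.9e-07), with a difference of 0.95 ± 0.41 that missed the threshold (adjusted p = 0.081). The difference passed without the third Tak-1 library (1.17, adjusted p = 0.0498).

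On scaffold_53 both partners rose but by unequal amounts. The minus-strand gene at 936948 to 937897 went from 2.89, 2.89 and 2.49 CPM to 10.9, 9.66 and 12.4 CPM. The plus-strand gene at 938592 to 940741 went from 3.12, 2.73 and 2.66 CPM to 268, 226 and 327 CPM. Both started at similar CPM in Tak-1, and only the second became abundant. Log2 fold changes were 1.99 ± 0.17 and 6.58 ± 0.18, and their difference of 4.60 ± 0.20 (SE; edgeR adjusted p = 1.8e-09) was well past the spread between libraries. On scaffold_164, models 397 bases apart at 133822 to 137902 and 138300 to 140035 went from 7.51 ± 1.17 to 20.0 ± 2.40 CPM and from 30.1 ± 0.94 to 49.7 ± 1.76 CPM (SD, n = 3). Their log2 fold changes of 1.41 ± 0.15 and 0.73 ± 0.07 differed by -0.68 ± 0.16 (SE; edgeR adjusted p = 0.0054).

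The 9 pairs with both partners down covered a narrower range. Their partners' log2 fold changes lay between -1.25 and -0.24, the median was -0.63, the ratio changed in 2, and the median absolute difference between partners was 0.10. The leading pair lies on scaffold_15, 321 bases apart, and is also 1 of the 3 most abundant pairs per kb. The minus-strand partner Mapoly0015s0036.v3.1 (456799 to 458039, 3 exon blocks) had 189, 239 and 252 CPM in Tak-1 and 122, 126 and 97.3 CPM in Mpbes1. The plus-strand partner Mapoly0015s0037.v3.1 (458361 to 460781, 4 exon blocks) had 987, 1334 and 1234 CPM in Tak-1 and 577, 624 and 549.8 CPM in Mpbes1. The second was the more abundant partner in every library, and for both partners every Mpbes1 value lay below every Tak-1 value. The log2 fold changes were -0.98 ± 0.13 and -1.02 ± 0.11 (SE; edgeR adjusted p = 0.00040 and 3.5e-05), and the difference was -0.04 ± 0.11 (adjusted p = 0.81).

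On scaffold_4 the partners at 2530556 to 2535210 and 2536112 to 2538959, 901 bases apart, fell from 92.6 ± 22.5 to 56.5 ± 9.68 CPM and from 112 ± 14.5 to 63.8 ± 7.02 CPM (SD, n = 3). The first of them was no longer called when the second Tak-1 library was left out (adjusted p = 0.067), nor without the second (0.059) or the third (0.061) Mpbes1 library. On scaffold_50, models at 137329 to 142363 and 142754 to 147899 fell by 0.47 ± 0.09 and 0.49 ± 0.12 on the log2 scale (SE), with edgeR adjusted p = 0.0018 and 0.0080. On scaffold_13, models at 779861 to 783626 and 783756 to 788438, 129 bases apart, fell by 0.47 ± 0.08 and 0.40 ± 0.11 (SE), with adjusted p = 0.0011 and 0.014. The second of these overlaps a further model, so reads may be mixed, and it was not called without the first Mpbes1 library (adjusted p = 0.062). In none of these 3 pairs did the ratio of the partners change (adjusted p from 0.50 to 0.92).

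Both partners were called at least 2-fold the same way in 4 of the 308 head-to-head pairs with both tested. The counts were 7 of 514 tail-to-tail pairs, 20 of 826 same-strand pairs and 186 of all 8077 non-overlapping neighbours. Of the 4 head-to-head pairs, those on scaffold_46, scaffold_36 and scaffold_53 rose. The other, named after its values were seen, lies on scaffold_3 with models at 2440823 to 2443363 and 2443573 to 2446500. Its partners fell from a mean of 1.46 to 0.609 CPM and from 15.1 to 6.38 CPM, with log2 fold changes of -1.21 ± 0.35 and -1.25 ± 0.13 (SE; edgeR adjusted p = 0.017 and 2.2e-05).

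Opposite changes were found in 5 pairs. The largest among those with both partners at 5 CPM or more lies on scaffold_66, 373 bases apart. The minus-strand gene at 575106 to 577620 had 3.86, 3.43 and 2.84 CPM in Tak-1 and 8.88, 7.38 and 9.75 CPM in Mpbes1. The plus-strand gene at 577994 to 579703 had 42.9, 34.1 and 39.1 CPM in Tak-1 and 19.6, 15.3 and 14.2 CPM in Mpbes1. The weaker partner rose and the stronger fell, with no overlap between genotypes in either. The log2 fold changes were 1.36 ± 0.19 and -1.25 ± 0.13 (SE; edgeR adjusted p = 0.00021 and 3.0e-05), a difference of -2.61 ± 0.22 (adjusted p = 8.4e-07).

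On scaffold_202, the models at 114575 to 121525 and 122091 to 125345 changed by 0.23 ± 0.07 and -1.11 ± 0.18 on the log2 scale (SE; edgeR adjusted p = 0.017 and 0.00059). The first was not called without the first library of Tak-1 (adjusted p = 0.055) or of Mpbes1 (0.083). On scaffold_82 (586571 to 593048 and 594015 to 598768) the values were 0.45 ± 0.15 and -0.31 ± 0.08, and on scaffold_80 (187849 to 190142 and 190412 to 193938) 0.51 ± 0.15 and -0.20 ± 0.07 (SE). These 4 partners had edgeR adjusted p = 0.031, 0.010, 0.032 and 0.046. Each of them lost its call when single libraries were left out, with adjusted p of 0.050 to 0.17 in those fits. The ratio within both pairs had changed, with differences of -0.77 ± 0.16 and -0.73 ± 0.14 (SE; adjusted p = 0.0022 and 0.0013). The remaining pair, on scaffold_154 at 295651 to 297193 and 297194 to 301041, was named after its values were seen and has abutting models. Its partners went from a mean of 1.22 to 0.378 CPM and from 3.14 to 5.65 CPM.

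Among pairs with both partners at 5 CPM or more in the higher genotype, the 4 largest within-pair differences were on scaffold_61, scaffold_53, scaffold_66 and scaffold_125. On scaffold_61, with 883 bases between the models, the minus-strand gene at 19838 to 24849 went from 28.4 ± 1.92 to 35.7 ± 2.53 CPM (SD, n = 3), with no overlap between genotypes. The plus-strand gene at 25733 to 26464, a model of 732 bases in 1 exon block, had 5.79, 8.97 and 6.13 CPM in Tak-1 and 243, 225 and 272 CPM in Mpbes1. The second gene went from the weaker to the stronger partner, while the first rose by 0.33 ± 0.09 on the log2 scale (SE; edgeR adjusted p = 0.012). The log2 fold change of the second was 5.14 ± 0.15, and the difference was 4.82 ± 0.15 (SE; adjusted p = 1.8e-10). Without the second Mpbes1 library the first gene was not called (adjusted p = 0.052).

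On scaffold_125, with 698 bases between the models, the minus-strand gene at 481060 to 489471 had a mean of 5.32 ± 1.02 CPM in wild type and 4.62 ± 1.07 CPM in the mutant (SD, n = 3), with overlapping values, and was not called (edgeR adjusted p = 0.53). Its plus-strand neighbour at 490170 to 493483 fell from 10.3, 10.8 and 9.59 CPM to 1.44, 1.73 and 1.27 CPM, a log2 fold change of -2.80 ± 0.19 (SE; adjusted p = 1.1e-06). The difference between these partners was -2.61 ± 0.29 (SE; adjusted p = 1.3e-05).

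**Figure D5:**
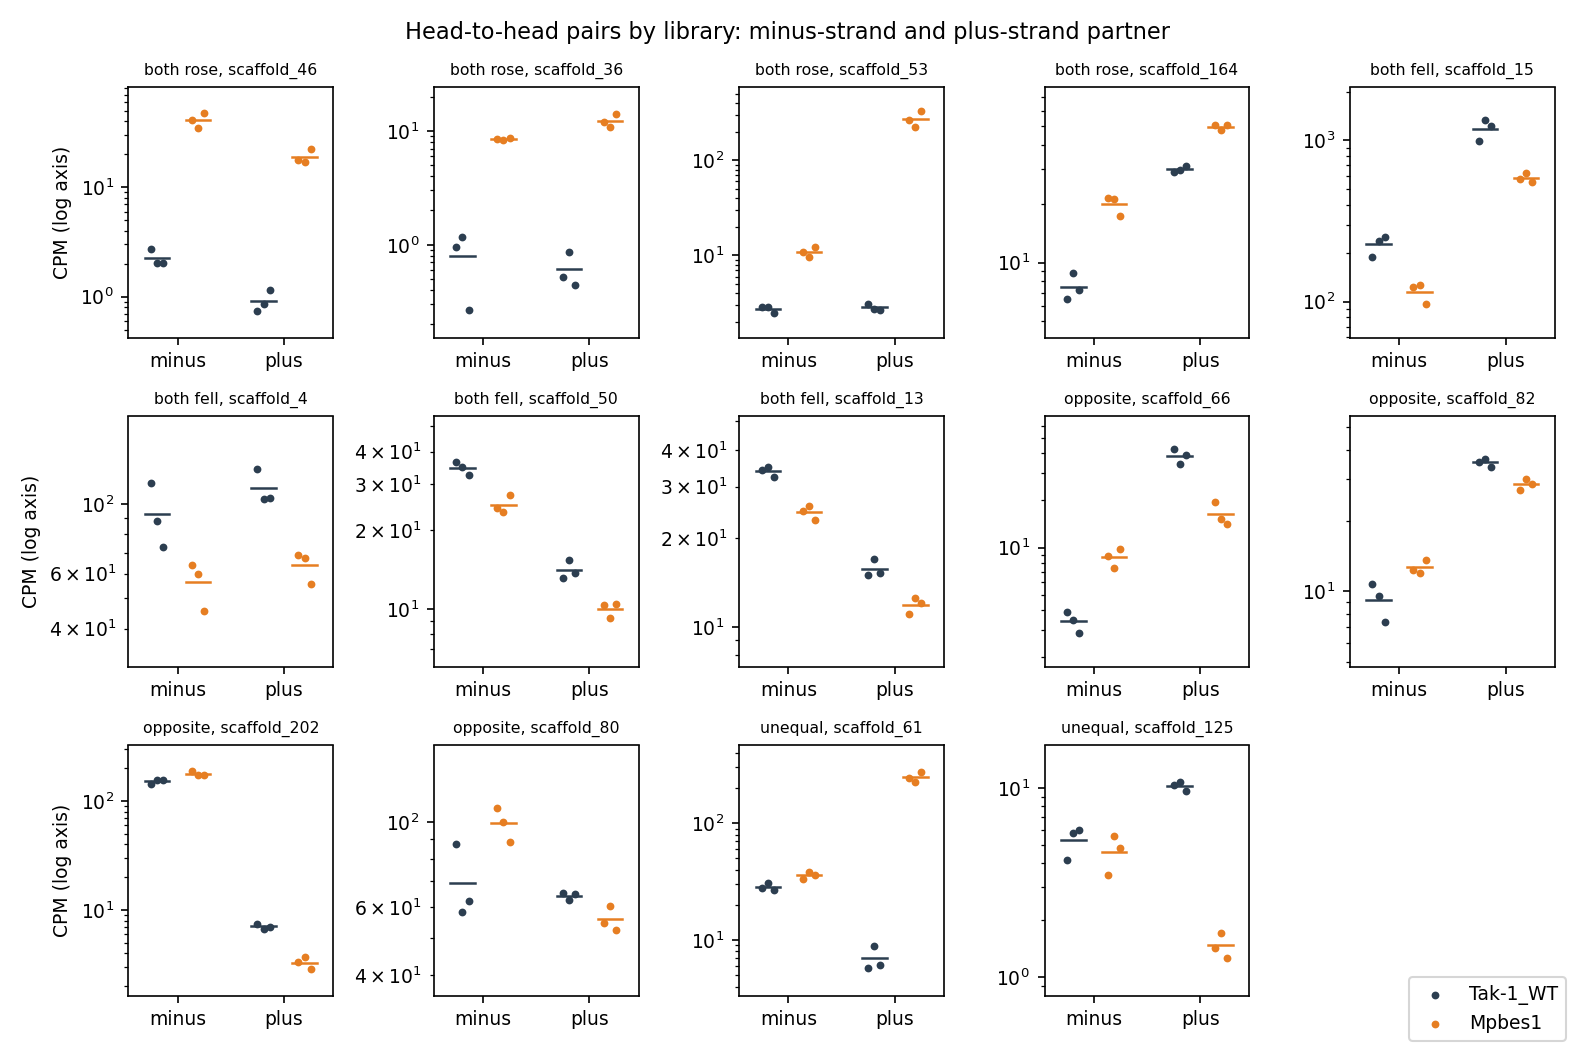
CPM on a log axis (vertical) of the minus-strand and plus-strand partner (horizontal) of 14 head-to-head pairs, 1 point per library and a line at the mean of each genotype, dark for Tak-1_WT and orange for Mpbes1. On scaffold_46 and scaffold_36 both partners rise together, on scaffold_15 both fall together, on scaffold_66 they move in opposite directions, and on scaffold_61 the plus-strand partner changes far more than the other.

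Abundant pairs and abutting pairs were described whatever their change. The most abundant pair per kb lies on scaffold_54, 257 bases apart, at 338028 to 340269 and 340527 to 342815, with levels of 368 and 817 CPM per kb. Its minus-strand partner had 407, 374 and 395 CPM in wild type and 476, 508 and 421 CPM in the mutant. Its plus-strand partner went from 1007 ± 87.1 to 1245 ± 60.1 CPM (SD, n = 3). Both rose slightly, by 0.26 ± 0.08 and 0.31 ± 0.09 on the log2 scale (SE; edgeR adjusted p = 0.032 and 0.016), without overlap between genotypes. These calls are fragile. The first was lost without the second or the third Tak-1 library or the first or second Mpbes1 library (adjusted p = 0.081, 0.056, 0.10 and 0.13). The second was lost without the first or second Mpbes1 library (0.055 and 0.064). The next pair, on scaffold_3 at 2619234 to 2620452 and 2620770 to 2622777, had nearly equal levels of 499 and 486 CPM per kb. Its log2 fold changes of 0.22 ± 0.11 and 0.19 ± 0.09 (SE) missed the threshold (adjusted p = 0.13 and 0.11). Without the third Mpbes1 library both passed (0.34 and 0.25; adjusted p = 0.0097 and 0.047).

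Of the 3 abutting pairs that came first by the rule, those on scaffold_162 (177838 to 184459 and 184460 to 186015) and scaffold_58 (768518 to 770837 and 770838 to 773630) had both partners up. Log2 fold changes were 0.53 ± 0.11 and 0.30 ± 0.08 on scaffold_162 and 0.51 ± 0.13 and 0.38 ± 0.11 on scaffold_58 (SE; edgeR adjusted p from 0.0026 to 0.017). The second partner on scaffold_58 was not called without the first (adjusted p = 0.056) or the third Tak-1 library (0.074). The partners on scaffold_58 are also alike in structure. On scaffold_11 (1707124 to 1711103 and 1711104 to 1713455) neither partner was called, with log2 fold changes of 0.10 ± 0.15 and 0.06 ± 0.12. In none of the 3 did the ratio change (adjusted p from 0.20 to 0.86).

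The pairs at the edge of the gap limit were ordinary members. The widest gap inside it was 1000 bases, on scaffold_48 at 586756 to 589791 and 590792 to 593149, where mean levels were 39.1 and 26.3 CPM and log2 fold changes -0.21 and -0.24. The first pair outside had a gap of 1002 bases, on scaffold_91 at 281736 to 283349 and 284352 to 288319, with mean levels of 47.0 and 136 CPM and log2 fold changes of 0.34 and 0.10. With the limit at 2000 bases, 499 pairs had both partners tested, 53 moved the same way and 8 in opposite directions, and the ratio changed in 17.8%.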

How the data were processed

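The authors deposited raw read counts per gene model, whole numbers without normalization, for 19287 models in 6 libraries. Alignment tool STAR 2.5.2b, counting tool featureCounts 1.5.1 and edgeR are listed per the submitters' processing notes, and the libraries were stranded poly(A) libraries per the labels' protocols. How strand and multiply aligned reads were handled, and the genome build, is not given in the sources used here. Coordinates are those of the deposited table, and exon length is its length column.

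A gene's span ran from its lowest start to its highest end, and the gap is the number of bases between consecutive spans; 920 of 18524 consecutive pairs overlapped and were left out. Genes were tested with edgeR 4.0.16 in R 4.3.3 (TMM, filterByExpr, robust quasi-likelihood fit, genotype as the only term), adjusted over all 12313 genes tested. The within-pair test used the same tool on 12 columns per pair (6 libraries by 2 partners), with terms for library, partner and partner by genotype. Standard errors come from the F statistic. Both fits were also run on simulated data, with the same biological variation for every gene and partners drawn independently. That setting does not show how the within-pair test behaves on real neighbours. Alternatives used DESeq2 1.42.0, limma 3.58.1, other scalings, filters and gap limits, and left out single libraries.

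Pairs were named by a rule. Among pairs with both partners tested and at a mean of at least 5 CPM in the higher genotype, it takes 4 pairs with both up, 4 with both down and 4 with opposite calls by the smaller change. It adds 4 by the within-pair difference, the 3 most abundant per kb and the 3 with the smallest gap. For the first 4 kinds the values of a changed partner had to be separate between genotypes. Printed identifiers are limited to 2 genes per direction. The members and lists were chosen with earlier results of these data known. An exact test of the members' share of counts was planned but, with 3 libraries against 3, cannot go below p = 0.10, so none is given.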

Additional observations from a re-analysis of the deposited data

How the results depend on the processing

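Of 848 alternative values, 769 were unchanged, and 672 of these were values of named partners and pairs. Unchanged means the same direction and call for a named partner or pair, and within 1.5 times for a count. A correlation had to stay within the SD of its values over pairs of single libraries. A median level had to stay within its SD between libraries of a genotype, and the share of counts had only to keep its direction. The 341 members called became 249 to 325 with 1 library left out (25.7% to 33.7% of those tested). The 73 members changed at least 2-fold became 70 to 84, and 47 of the 852 then tested when a level of 5 CPM was required in 3 libraries. The 33 pairs moving the same way became 24 to 33, the 5 moving in opposite directions 2 to 4, the 54 pairs with a changed ratio 39 to 54, and the Spearman correlation of the partners' log2 fold changes 0.35 to 0.42. That correlation was 0.32 with no filter, where weakly expressed genes enter. The median level was 4.81 to 5.01 CPM per kb with 1 library left out and 12.7 among tested models only.

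Other sets of pairs moved the counts, since they hold fewer or more pairs. Of all genes tested 40.4% were called, and 11.7% changed at least 2-fold. With gaps of at most 200 bases, 103 of 288 tested members were called (35.8%), 18 at least 2-fold. Of the 75 pairs with both partners tested, 9 moved the same way and 11 had a changed ratio. The correlation was 0.46 and the median level 2.59 CPM per kb. At 500 bases 227 of 640 tested members were called (35.5%) and 33 of 202 pairs had a changed ratio, with a median level of 5.08. At 2000 bases 110 of 1480 tested members changed at least 2-fold. Of 499 pairs, 53 moved the same way and 89 had a changed ratio, and the median level was 5.14. Without other neighbours within 1000 bases, 194 of 504 tested members were called (38.5%), 45 at least 2-fold. Of 149 pairs, 17 moved the same way and 27 had a changed ratio, and the median level was 4.68. With both partners at 20 CPM or more, a set chosen after seeing the data, 74 of 258 members were called (28.7%), 2 at least 2-fold. Of 129 pairs, 14 moved the same way and 22 had a changed ratio.

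In every alternative run for all 3 arrangements, the share of pairs with a changed ratio was lowest in head-to-head and highest in tail-to-tail pairs. Among named partners and pairs, 34 values lost their call, 5 gained one and 11 turned sign. Those that turned were all small, uncalled values with 1 library left out, and the cause was not tested. The log2 fold changes on scaffold_11 ranged from -0.0043 to 0.19 and from -0.030 to 0.14, and their difference from -0.12 to 0.036. The within-pair difference ranged from -0.095 to 0.45 on scaffold_46, from -0.11 to 0.016 on scaffold_15, from -0.11 to 0.043 on scaffold_50 and from -0.091 to 0.011 in the abundant pair on scaffold_3.

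Deviations of samples with the same replicate number correlated at 0.17, -0.03 and 0.14, and 4 of 6 libraries correlated best with their own number. These values do not settle whether the numbers pair samples. The main fits did not pair them. With the replicate number as a block 357 members were called, 74 at least 2-fold, 37 pairs moved the same way and the correlation was 0.37. With limma and the replicate block 62 pairs had a changed ratio, against 55 with limma alone, and the difference on scaffold_36 passed the threshold (adjusted p = 0.040).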
